A study of Pistia stratiotes with 8 samples.

Results

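In Pistia stratiotes, a floating freshwater plant of the arum family, 96 of 16504 transcript models were among the most abundant of the leaf and stood clearly higher there than in root, while every one of them was still read in every root library. These 96 members were selected on the measured levels. The models were ranked by their mean over the 4 leaf libraries, and a member lay in the top 300, had a lowest leaf value of at least 2 times its highest root value, and had a root mean above 0. Leaf level, root level and the distance between the tissues were therefore used in the choice and are given below as a description. The label of abundant leaf-enriched models still expressed in root fitted the values: the lowest of all root values among the members, 10.0 normalized counts, was worth about 10.7 reads, and no member was listed at 0 in any library.

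Leaf and root material came from young plants with 3 to 4 leaves, taken from flasks in which 1 mature plant each had been grown for 10 days on 200 ml of SH medium. The leaf group held 4 libraries of the largest emerged leaf and the root group 4 libraries of roots freed of apex and laterals, each from the tissue pooled within a flask. No strain, genotype or treatment is given in the labels, and both groups shared the medium and the culture. The values are normalized counts, that is, read numbers the authors had scaled between libraries, and an estimated 5814000 to 6209000 reads stood behind a library. The columns summed to between 7299221 and 8749656 for leaf and between 5458151 and 5809933 for root, so that the scale on which a model is read matters for every ratio below.

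Leaves carry out most of the plant's photosynthesis, and the messenger RNA of a leaf is commonly dominated by few kinds of transcript, many of them nuclear-encoded parts of the photosynthetic apparatus. Roots of a floating plant hang free in the water, where they take up nutrients. An abundant transcript that is lower but present in the other organ can come from a gene used by both organs at different rates or from a gene active in few cells of that organ. In bulk tissue, fewer cells of a type and less RNA per cell cannot be told apart. The files name models by number only and do not pair them with genes, so no function is given to any member and the leaf or root identity of the tissue could not be checked by marker genes.

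The members weighed heavily in the leaf pool and little in the root pool. They made up 26.1%, 23.0%, 23.5% and 21.3% of leaf libraries 1 to 4, and 5.67%, 5.72%, 6.06% and 6.94% of root libraries 1 to 4. Leaf library 1 was the highest and leaf library 4 the lowest of the leaf group, root library 4 was the highest of the root group, and the groups did not overlap. On average the share was 23.5% ± 1.99 for leaf and 6.10% ± 0.59 for root (SD over the 4 libraries of a tissue). The other 204 models of the top 300 took nearly as much of a leaf library, 22.6% ± 1.21, and kept 18.2% ± 0.75 of a root library. Within the members, 3 models alone held 8.20% ± 1.25 of a leaf library, and the remaining members held 15.3% ± 0.85.

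Members crowded towards the top of the leaf ranking. Of the 10 most abundant leaf models 5 were members, of the first 100 there were 52, of the next 100 there were 24, and of the last 100 there were 20. Leaf means ran from 3036 to 264484 normalized counts with a median of 9500, against a median of 4734 for the rest of the top 300. Root means ran from 29.4 to 51303 with a median of 1829. Some members also ranked high in root: 42 were among the 300 highest root models, 16 among the first 100 and 2 among the first 10. The median root rank was 443 for the members and 221 for the rest of the top 300. The rule selects against a high root level. At the other end, 30 members lay below rank 1000 in root. Across the members, leaf and root means rose together (Spearman's rho = 0.75 over 96 models measured in the same libraries), whereas the leaf mean and the ratio of the means did not (rho = 0.03). Both means entered the rule, which keeps a member that is low in leaf from being high in root. Part of the joint rise is therefore set by the choice, and nothing is read from these coefficients.

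**Figure D1:**
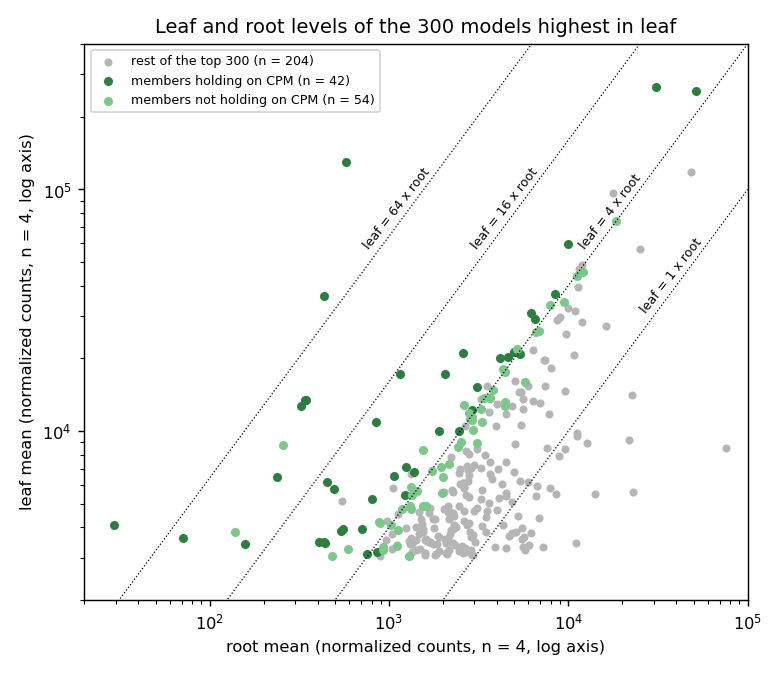
Mean root level (horizontal, normalized counts, log axis) against mean leaf level (vertical, normalized counts, log axis) of the 300 models highest in leaf, each point 1 model averaged over 4 libraries per tissue. Dark green points are the 42 members that also meet the rule on CPM, light green the 54 that do not, and grey the 204 other models. Dotted lines mark ratios of 1, 4, 16 and 64. Near the line of 4, at ratios from 3.5 to 5, lie 48 of the 96 members, and 11 lie beyond the line of 16.

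The rule itself was met by 852 of all 16504 models at any level (5.16%), and within the top 300 by 96. In the comparison of leaf with root by limma, all 96 members passed the filter on low values and all 96 were called higher in leaf (Benjamini-Hochberg adjusted p under 0.05), where 24.4% of the 13688 tested models were called higher in leaf. Since the members were chosen by this very contrast, nothing is read from that count. Their median difference of log2(normalized count + 1) was 2.04, with a range of 1.23 to 7.79, and that of all tested models was -0.05. Of the 204 other models in the top 300, 121 also had every leaf value above every root value but missed the limit, 16 had every leaf value below every root value, and in 67 the tissues overlapped. Ranking by leaf level favours models higher in leaf, and the like shares over all models were not counted, so nothing is read from these numbers. No model of the top 300 was at 0 throughout root.

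Most members differed between the tissues by a modest ratio. The ratio of leaf mean to root mean had a median of 4.22 and quartiles of 3.76 and 6.34, so that a member's root level was typically 23.7% of its leaf level. It was under 4 for 41 members, 4 to 16 for 44, 16 to 64 for 8 and above 64 for 3. A narrow stretch from 3.5 to 5 held 48 members, 15 lay below it and 33 above. The lower end of this spread is set by the limit in the rule, and 10 models of the rest of the top 300 had ratios in the same stretch while their single libraries lay too close. Median root means were 2830 normalized counts under a ratio of 4, 1458 from 4 to 16, 247 from 16 to 64 and 436 above 64, while the median leaf means were 9010, 10011, 7606 and 36387.

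The 2 models highest in leaf were members and also stood high in root. Pis01791.t1, at rank 1 in leaf and rank 5 in root, had 289603, 242165, 327097 and 199071 normalized counts in leaf libraries 1 to 4 and 28914, 23426, 35159 and 35816 in root libraries 1 to 4. Its lowest leaf value was 5.56 times its highest root value, and its share was 3.35% ± 0.56 among leaf reads against 0.548% ± 0.095 among root reads (SD, n = 4 per tissue). Pis14047.t1, at rank 2 in both tissues, had 371641, 223919, 237744 and 193010 in leaf and 38783, 51152, 52463 and 62812 in root. Leaf library 1 stood highest in leaf and root library 4 highest in root, and its root mean of 51303 ± 9842 was the highest of any member. The difference on the log2 scale was 3.10 (standard error 0.45) for Pis01791.t1 and 2.30 (standard error 0.50) for Pis14047.t1.

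Pis14142.t1 was their opposite in root. It stood at rank 3 in leaf, with 178202, 114403, 130618 and 94304 normalized counts in leaf, and had 547, 429, 712 and 626 in root. Its root mean of 578 ± 120 was 0.447% of its leaf mean of 129382 ± 35776, the lowest proportion of any member, and the lowest leaf value was 132 times the highest root value. The log2 difference was 7.79 (standard error 0.25). Root library 3 was the highest of its root values and leaf library 1 the highest of its leaf values.

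Pis08954.t1, Pis19041.t1, Pis00563.t1 and Pis17020.t1 completed the members named for a leading level in leaf or root. Pis08954.t1 had 101927, 70718, 67572 and 54711 normalized counts in leaf and 14928, 17760, 17995 and 23611 in root. Pis19041.t1 had 81954, 62390, 42689 and 50831 in leaf and 8389, 10782, 8368 and 12523 in root. All of them were highest in leaf library 1 and in root library 4. Pis00563.t1 had 64043, 42170, 45681 and 31209 in leaf and 10537, 9833, 13058 and 14616 in root. Pis17020.t1 had 58078, 44373, 43195 and 29433 in leaf and 9623, 10208, 11304 and 13540 in root. Near-equal ratios of leaf to root mean, 3.97, 3.81 and 3.92, were found for Pis08954.t1, Pis00563.t1 and Pis17020.t1, and Pis19041.t1 had 5.94.

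**Figure D2:**
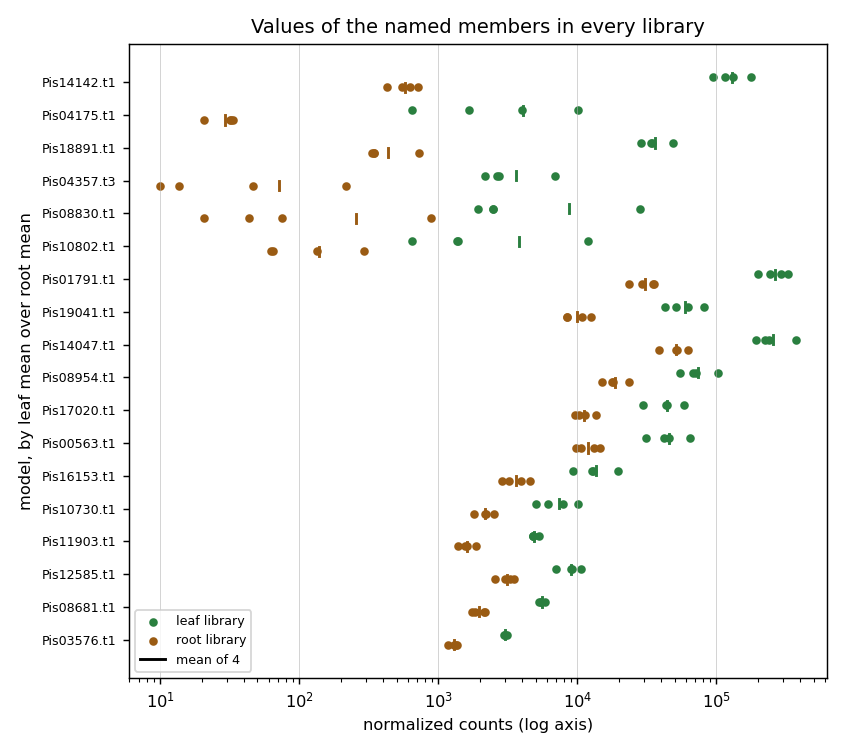
Normalized counts (horizontal, log axis) of the 18 named members (vertical, ordered by leaf mean over root mean), with each leaf library in green, each root library in brown and vertical bars at the mean of 4. Green and brown points are apart in every row; the root points of Pis04357.t3 and Pis08830.t1 and the leaf points of Pis04175.t1, Pis08830.t1 and Pis10802.t1 are spread the most.

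Besides Pis14142.t1, the lowest root levels in proportion to leaf belonged to Pis04175.t1 and Pis18891.t1. Pis04175.t1 had 10033, 1659, 3967 and 651 normalized counts in leaf and 31.6, 20.5, 33.5 and 32.0 in root. Its leaf libraries spread widely while its root libraries stayed within a narrow range. The leaf mean of Pis04175.t1 (4077 ± 4206) rested largely on leaf library 1. Pis18891.t1 had 33919, 34393, 28695 and 48542 in leaf and 345, 333, 343 and 722 in root. Root library 4 stood apart for Pis18891.t1, while the other root libraries lay between 333 and 345. Pis04175.t1 was low in root by rank as well, at 11775, while Pis18891.t1 and Pis14142.t1 stood at root ranks 3058 and 2180. Root means were 0.721% and 1.20% of leaf means for Pis04175.t1 and Pis18891.t1, and the log2 differences were 6.42 (standard error 0.66) and 6.44 (standard error 0.27).

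Members at the edge of the choice differed little from models that missed it. Pis12585.t1 had 8990, 9116, 7044 and 10538 normalized counts in leaf and 2567, 3520, 3018 and 3282 in root. For Pis10730.t1 leaf gave 10157, 6104, 7928 and 5065 and root 2170, 1810, 2184 and 2509. For Pis16153.t1 leaf gave 19727, 12822, 12941 and 9222 and root 2876, 3225, 3948 and 4524. The lowest leaf value of these members was 2.00, 2.02 and 2.04 times the highest root value. Just outside stood Pis14092.t1, Pis13868.t1 and Pis07384.t1, at 1.99, 1.98 and 1.97 times. Pis13868.t1, with leaf values from 9514 to 21852 and root values from 2370 to 4800, had a ratio of means of 4.34, above the median of the members, and missed the limit through its spread among libraries. The gap was below 2.5 for 42 members, and 54 other models of the top 300 had gaps from 1.5 to 2.

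Membership depended on the scale. With each column total set to 1000000 (CPM), 42 of the 96 members met the rule and no other model did. The leaf totals were on average 1.40 times the root totals. A member's ratio of means was larger on the deposited scale than on CPM by a median factor of 1.41. The members are themselves part of these totals. Of the column total, the top 300 made up 46.0% in leaf and 24.3% in root on average, and the members 23.5% and 6.10%. Mean estimated reads were close, at 6020500 for leaf and 5919500 for root. CPM is therefore not independent of the members, and their loss on it is no separate check. Of the 54 members that were lost, 53 fell under the limit of 2, and 1 stayed above it but left the top 300. The gaps of the 54 on CPM ran from 1.34 to 2.89, and 94 of the 96 members had a leaf mean of at least 2 times the root mean. The median ratio of means over the 96 was 3.00 on CPM. The median difference of all tested models moved from -0.05 to -0.49 with this scaling, while that of the members moved from 2.04 to 1.56, and all 96 members were called higher in leaf on CPM, where 13.7% of all tested models were. Nothing is read from that count either, since the contrast had chosen the members.

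Members with a larger ratio held more often. This largely follows from the scaling, since CPM lowered the ratios of means by a median factor of 1.41. On CPM the rule was met by 2 of 41 members with a deposited ratio under 4, by 31 of 44 from 4 to 16, by 6 of 8 from 16 to 64 and by 3 of 3 above 64. Among the leading models, Pis01791.t1, Pis14047.t1, Pis14142.t1 and Pis19041.t1 held, with gaps of 4.36, 2.45, 102 and 2.47, and Pis08954.t1, Pis00563.t1 and Pis17020.t1 did not, with gaps of 1.84, 1.70 and 1.73. The 42 members that held accounted for 14.8% ± 1.12 in the leaf pool against 2.90% ± 0.31 in the root pool (SD, n = 4 per tissue). With quantile normalization, which makes the distribution of all libraries alike, 37 members met the rule, and 32 met it on all 3 scales.

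**Figure D3:**
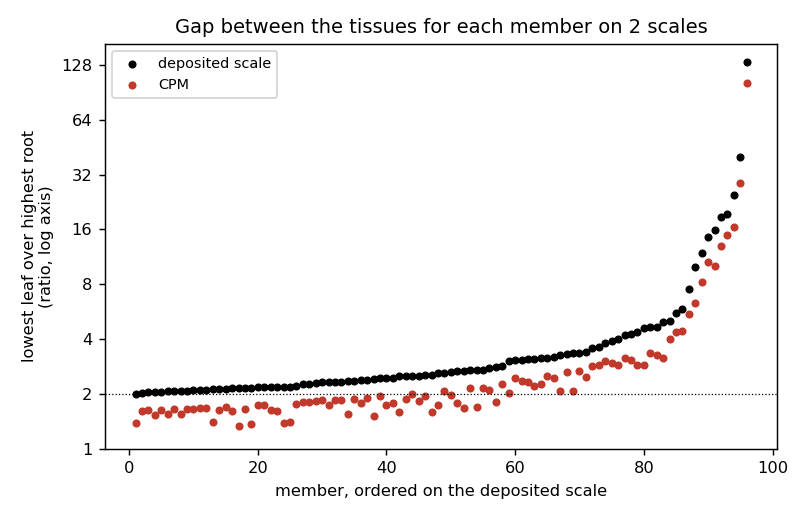
Lowest leaf value over highest root value (vertical, ratio, log axis) for each of the 96 members (horizontal, ordered on the deposited scale), in black on the deposited scale and in red on CPM, with the limit of 2 dotted. Red points lie below black ones throughout; 53 of them are under the limit.

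Many members shared 1 order of the libraries within each tissue, a property that the rule did not ask for. Leaf library 1 was the highest and leaf library 4 the lowest for 48 of the 96 members, an order found for 19.1% of all tested models and for 35.3% of the rest of the top 300. Root library 4 was the highest root library for 60 members (62.5%), against 25.6% of all tested models and 41.7% of the rest of the top 300. Both orders met in 41 members (42.7%), against 6.28% and 21.1%. Members are measured in the same libraries and are not independent, so these shares are a description without a test.

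The libraries concerned were also those with extreme column totals. Leaf library 1 had the highest and leaf library 4 the lowest total of the leaf group. Root library 4 had the highest of the root group. The top 300 are part of these totals, at 50.3% of leaf library 1 and 42.6% of leaf library 4. The match is therefore partly built in, and CPM, which sets all totals alike, is not independent of these models. On CPM, leaf library 1 highest and leaf library 4 lowest was the order of 37 members, against 11.4% of all tested models. Root library 4 was highest for 52, against 18.7%. In the rest of the top 300 the shares on CPM were 27.0% and 30.9%. With quantile normalization the leaf order was held by 28 members (29.2%), against 25.5% of the rest of the top 300 and 17.6% of all tested models, so that the members stood little apart from the other abundant models. Root library 4 was then highest for 49 members (51.0%), against 51 of the 204 other models and 23.6% of all tested models. The median deviation of the members from their own leaf mean was 0.28 in leaf library 1 and -0.30 in leaf library 4 on the log2 scale, 0.13 and -0.20 on CPM, and 0.02 and -0.08 after quantile normalization, where the rest of the top 300 had 0.02 and -0.09. In root library 4 it was 0.23, with 0.18 on CPM and 0.17 after quantile normalization, where the rest had 0.05.

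**Figure D4:**
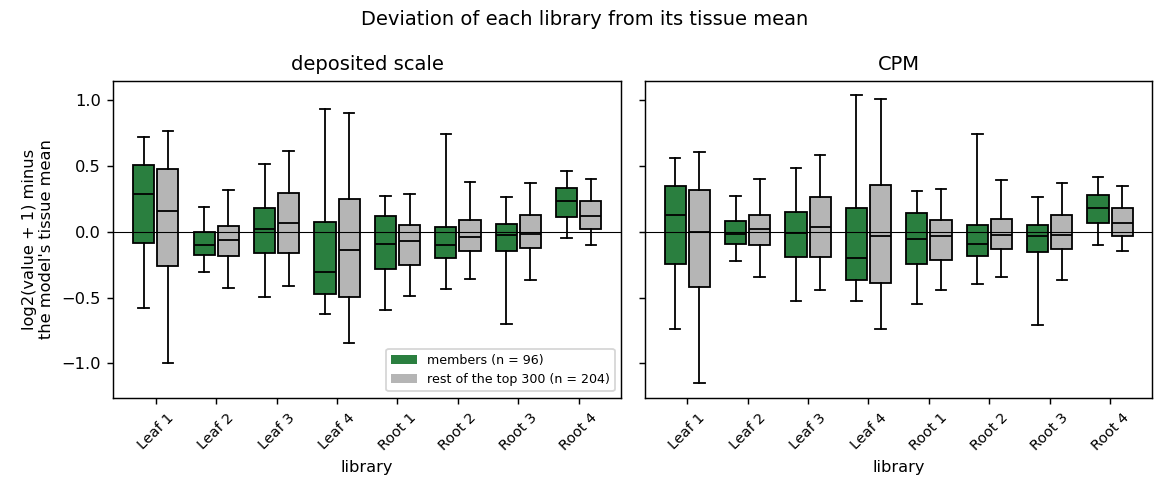
Deviation of log2(value + 1) from each model's own tissue mean (vertical) by library (horizontal) on the deposited scale (left) and on CPM (right), for the 96 members in green and the 204 other models of the top 300 in grey. Boxes span the quartiles with the median as a line and whiskers reach the 5th and 95th percentiles over models; the members' median is 0.28 in leaf library 1, -0.30 in leaf library 4 and 0.23 in root library 4 on the deposited scale, and keeps its sign on CPM.

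On the deposited scale, members with the shared order mostly had a modest ratio, as did the members as a whole. Among the 41 members with both orders the ratio of leaf to root mean had quartiles of 3.75 and 4.67 and reached at most 11.7, and their median levels were 11409 normalized counts in leaf and 2888 in root. The order of leaf library 1 highest and leaf library 4 lowest was held by 26 of 41 members under a ratio of 4, by 20 of 44 from 4 to 16, by 0 of 8 from 16 to 64 and by 2 of 3 above. Leaf library 4 was instead the highest for 6 of the 8 members from 16 to 64, and for 20 of the 96 in all.

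On the deposited scale the replicate spread of the members was near that of other models. The median SD of log2(normalized count + 1) was 0.39 over the leaf libraries and 0.24 over the root libraries, compared with 0.42 and 0.22 in the rest of the top 300 and 0.35 and 0.23 in all tested models. Leaf spread exceeded root spread for 69 of 96 members (71.9%), against 71.1% of all tested models and 85.3% of the rest of the top 300. On CPM it did for 67 members (69.8%), against 68.3% and 83.8%. After quantile normalization it did for 45 members (46.9%), against 64.8% and 73.0%, so that the likeness to all tested models depended on the scale. Members with a larger ratio varied more among root libraries (rho = 0.62 over 96 members) and somewhat more among leaf libraries (rho = 0.35). The rule admits a model with a modest ratio only if its libraries lie close together, while a large ratio leaves room for spread. Part of this rise is therefore set by the choice, and nothing is read from it. The median root SD was 0.19 under a ratio of 4, 0.29 from 4 to 16, 0.78 from 16 to 64 and 0.32 for the 3 members above 64, so that it did not rise through every band.

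Some members hardly varied. Pis03576.t1, at rank 300 the last of the leaf ranking to qualify, had 2995, 2982, 3130 and 3034 normalized counts in leaf and 1293, 1359, 1181 and 1335 in root. Pis08681.t1 had 5877, 5500, 5452 and 5303 in leaf and 1840, 2139, 1756 and 2161 in root. Pis11903.t1 had 4772, 4808, 5273 and 4794 in leaf and 1875, 1554, 1384 and 1602 in root. Their leaf SDs on the log2 scale were 0.03, 0.06 and 0.07, the smallest of the members, and their ratios of leaf to root mean were also low, at 2.35, 2.80 and 3.06. None of them met the rule on CPM, with gaps of 1.40, 1.75 and 1.59.

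Other members varied by more than 10 times within a tissue. Pis08830.t1 had 1920, 2491 and 2483 normalized counts in leaf libraries 1 to 3 and 28187 in leaf library 4, and 20.7, 887, 43.7 and 74.4 in root libraries 1 to 4. Pis10802.t1 had 642, 1364 and 1380 in leaf libraries 1 to 3 and 11931 in leaf library 4, and 64.2, 293, 62.7 and 134 in root. Pis04357.t3 had 2148, 2631, 2727 and 6946 in leaf and 10.0, 216, 13.5 and 46.3 in root. In all of these models leaf library 4 and root library 2 stood highest. Their SDs on the log2 scale were 1.82 in leaf and 2.32 in root for Pis08830.t1, 1.82 and 1.05 for Pis10802.t1, and 0.76 and 1.96 for Pis04357.t3. Leaf means of Pis08830.t1 (8770 ± 12947) and Pis10802.t1 (3829 ± 5412) rested on leaf library 4. With that library left out, Pis04357.t3, Pis08830.t1 and Pis10802.t1 ranked 401, 446 and 1117 in leaf and so fell outside the top 300. A high value in 1 library also set the gap, and on CPM the gaps of Pis08830.t1 and Pis10802.t1 were 1.38 and 1.39.

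Leaf library 4 highest together with root library 2 highest was looked for in all models after these values had been seen. Both libraries were the highest of their tissue for 10 members (10.4%), against 7.62% of all tested models and 11.8% of the rest of the top 300, which is close to the background. With each at least 2 times the next library of its tissue, 3 members (3.1%) remained, against 0.175% of all tested models and 0.49% of the rest. Those 3 were Pis08830.t1, Pis10802.t1 and Pis04357.t3, in which the order was first seen, so nothing is read from that count. Whether the tissues of these libraries came from the same flask is not stated in the labels.

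**Figure D5:**
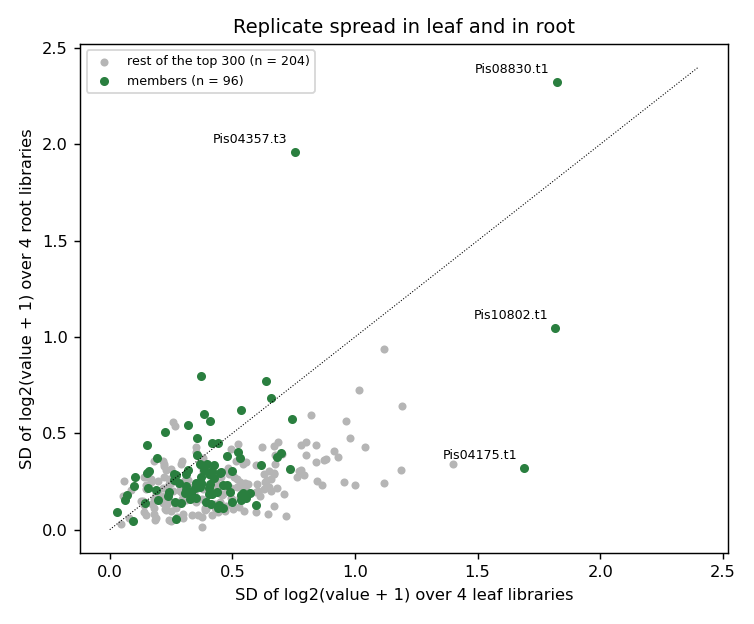
SD of log2(value + 1) over the 4 leaf libraries (horizontal) against that over the 4 root libraries (vertical) for the 96 members in green and the 204 other models of the top 300 in grey, with equality dotted. Most members lie in the lower left, and Pis04175.t1 is wide in leaf only at 1.69 against 0.32. Pis08830.t1 (1.82 in leaf, 2.32 in root) and Pis10802.t1 (1.82 and 1.05) are wide in both tissues. Pis04357.t3 (0.76 and 1.96) is wide mainly in root.

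The table holds 1 model for each of 16504 gene numbers running up to 20355, so it lists no second model of a member's gene. Whether others were measured is not given. Of the 96 members, 94 carried transcript number 1. No members had consecutive gene numbers. Of the 165 models at the gene number just before or after a member's, 133 passed the filter on low values. Leaf was called higher for 38 of these (28.6%), near the 24.4% of all tested models called higher in leaf (limma, adjusted p under 0.05). Root was called higher for 36 of the 133, against 3729 of all 13688 tested models. The median log2 difference of the neighbours was 0.04. These neighbours took no part in the choice of members, and whether the numbers follow the order of genes on a chromosome is not given in the sources used here.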

How the data were processed

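Poly(A) RNA of 4 leaf and 4 root libraries was read as paired ends. The deposited table holds normalized counts, a signal scaled between libraries by the authors; Salmon and DESeq2 are named, per the submitters' processing notes, without role or version. For the transcript set, build and filters, nothing is given in the sources used here. Of the values above 0, 0.000814% were whole (within 1e-6), so read counts were not recovered. The worth of a read was taken as the median of the values around the commonest low value of a column, 0.928 to 1.45 normalized counts, and the column total divided by it estimates the depth. It varies within a column, so no counting interval is given. No column went unused.

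Leaf columns are numbered 1 to 4 and leaf labels 1, 3, 4 and 5, so a leaf column was tied to its tissue only. Library numbers are those of the columns. Same-numbered leaf and root libraries deviated together with correlations of -0.02 to 0.03, and the tissues were compared unpaired. The labels describe a replicate as the tissue pooled within a flask.

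Leaf was compared with root on log2(normalized count + 1) by limma 3.58.1 (R 4.3.3) with a trended prior variance over models that reached 10 normalized counts in 4 or more libraries (3 with a library left out), with Benjamini-Hochberg adjustment and a threshold of 0.05. The fit was tested on simulated data. Other values used Python 3.11.15, numpy 2.4.6 and pandas 2.3.3. The design had foreseen a count of other models of the members' genes, of which the table has 0. Members, lists, ratio bands, library orders and tests were chosen with earlier results of these data known. Named members were taken by rule: 5 highest in leaf, 5 highest in root, 3 lowest in root relative to leaf, 3 on either side of the limit, 3 with the largest and 3 with the smallest leaf SD, and 3 with the largest root SD.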

Additional observations from a re-analysis of the deposited data

Results flagged for a closer look

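In 44 groups of 4 libraries examined (the leaf and the root values of each named model and the members' shares), 7 held a highest or lowest library that lay past the 95% limit of Dixon's gap-to-range ratio. Chance flags about 1 in 20 groups, and the models concerned had all been named for an extreme spread or an extreme proportion in root.

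Leaf library 4 stood high for Pis08830.t1, at 28187 normalized counts against 1920 to 2491 in the other leaf libraries. Leaf library 4 was also high for Pis10802.t1, at 11931 against 642 to 1380, and for Pis04357.t3, at 6946 against 2148 to 2727. Root library 2 stood high for Pis08830.t1, at 887 against 20.7 to 74.4 in the other root libraries. Root library 4 stood high for Pis18891.t1, at 722 against 333 to 345. Root library 2 stood low for Pis04175.t1, at 20.5 against 31.6 to 33.5. Leaf library 3 stood high for Pis11903.t1, at 5273 against 4772 to 4808, in 1 of the 3 members with the smallest leaf SD.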

How the results depend on the processing

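The number of members found by the rule was 96, and it was 42 with column totals (CPM), 37 with quantile normalization and 38 with a limit of 3 times in place of 2. It was 76 in the top 200 and 132 in the top 500. With single libraries left out it ran from 96 to 124, most without leaf library 4, and 90 to 96 of the original members were found again. Leaving a library out can only loosen the limit, so an original member could be lost through the leaf ranking alone. With a root library left out, all 96 had to return. The median root level was 23.7% of leaf, 33.3% on CPM and 36.8% after quantile normalization. Leaf library 1 was highest and leaf library 4 lowest for 48 members, and for 28 after quantile normalization. Models called higher in leaf numbered 3334, and 1869 on CPM; among the models at neighbouring gene numbers 38 were called, and 22 on CPM. In all, 80 of 88 checks stayed within the limits for a like value (1.5 times for a count, 1 SD between libraries for a level) and 8 moved. The cause was not tested. The members are part of the column totals, so the values that moved on CPM are no independent check. Some checks could hardly have moved: a mean share with 1 library left out cannot shift by 1 SD. The members' calls followed from the contrast that had chosen them. The tally is therefore no measure of how stable the results are. The orders on CPM and after quantile normalization were added after seeing the data. With the column number as a replicate block, 3100 models and all 96 members were called higher in leaf; a shared number is not stated to mark a shared flask. Low root values, down to 10.0 normalized counts, are limited by depth.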
